A study of Homo sapiens with 9 samples.

Results

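The microRNAs hsa-miR-103a-3p, hsa-miR-103a-2-5p and hsa-miR-107 (the prefix for human is dropped below) come from hairpins inside introns of the PANK genes, and their levels were followed here in Jurkat cells before and after activation through the T cell receptor. Rows were taken by mature name: 3 mature miRNAs of 2654 in the count table, held in 4 of its 2883 rows, since miR-103a-3p has a row for each of its 2 precursors. All 4 rows passed the filter on low counts, with 701 rows tested in all. Jurkat clone E6-1 is an established human T lymphoblast line. Small RNA libraries had been made from total RNA of unactivated cells (0 h, the controls) and of cells activated for 5 h and 12 h with plate-bound antibody to CD3 (10 µg/mL) plus soluble antibody to CD28 (5 µg/mL), with 3 biological replicates at each time. Unactivated cells were sampled at 0 h, and none at 5 h or 12 h, so activation and time in culture cannot be told apart. The line is a single leukaemia-derived clone that grows without a stimulus, which limits it as a model of a resting T cell.

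As background, a miRNA hairpin is cut from its host transcript by Drosha and then by Dicer into a short duplex. The strand kept by Argonaute recognises target mRNAs mainly through its seed, bases 2 to 8 from the 5′ end. PANK1, PANK2 and PANK3 encode pantothenate kinases, which carry out the first committed step of coenzyme A synthesis, and miR-103 and miR-107 have been studied for this reason as miRNAs of lipid and glucose metabolism. In mice they act on insulin sensitivity through caveolin-1, and in human cells miR-103 and miR-107 repress DICER1. They belong to the miR-15 and miR-107 group, whose members share a short stretch at the 5′ end and repress cell cycle regulators such as cyclins D1 and E1.

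The mature sequences are shown first because the levels of the pair cannot be read without them. They are taken from RefSeq (GRCh38.p14), run 5′ to 3′, and carry the seed in capitals.
miR-103a-3p: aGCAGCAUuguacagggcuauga
miR-107: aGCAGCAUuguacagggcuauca
miR-103a-2-5p: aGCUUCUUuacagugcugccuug
All 3 are 23 bases long. miR-103a-3p and miR-107 share their seed and their first 21 bases and differ by 1 base, G22C, with positions counted from 1 at the 5′ end of miR-103a-3p. A read that stops before base 22 fits both entries, and how such reads were assigned is not given in the sources used here. Among all mature miRNAs of the RefSeq table, these 2 names were the only ones with this seed. In 7 others, among them miR-15a-5p, miR-15b-5p and miR-16-5p, bases 2 to 8 equal bases 1 to 7 of miR-103a-3p, so the shared stretch is shifted by 1 base.

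The hairpins show where the arms lie, with the named mature arms in capitals.
mir-103a-1: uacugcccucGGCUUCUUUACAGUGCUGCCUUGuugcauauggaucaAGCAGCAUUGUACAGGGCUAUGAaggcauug
mir-103a-2: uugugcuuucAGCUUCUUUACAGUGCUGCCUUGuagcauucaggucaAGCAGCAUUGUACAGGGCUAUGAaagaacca
mir-107: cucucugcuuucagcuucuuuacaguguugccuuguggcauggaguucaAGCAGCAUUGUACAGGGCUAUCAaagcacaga
On GRCh38, mir-103a-1 lies at chr5:168560896-168560973 on the minus strand in PANK3, mir-103a-2 at chr20:3917494-3917571 on the plus strand in PANK2, and mir-107 at chr10:89592747-89592827 on the minus strand in PANK1. Each hairpin was on the strand of its host and overlapped no exon of it in GENCODE 29. In the principal transcript of each host, which has 7 exons in all 3 genes, the hairpin was in intron 5. That intron is 2235 bases long in PANK3, 1620 in PANK2 and 4419 in PANK1. Since miR-103a-3p is spelled alike in mir-103a-1 and mir-103a-2, reads that lie within this sequence cannot be told apart by host gene.

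The 5p arms are nearly as alike. miR-103a-2-5p differs from miR-103a-1-5p, the entry for the same arm of the other hairpin, by A1G, and from the matching stretch of the mir-107 hairpin by C16U, counted from the 5′ end of miR-103a-2-5p. The aligned arms are given below, with the letter unlike miR-103a-2-5p in capitals.
miR-103a-2-5p: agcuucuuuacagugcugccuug
miR-103a-1-5p: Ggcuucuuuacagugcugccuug
mir-107 stretch: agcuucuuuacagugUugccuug
The count table has no separate entry for the 5p arm of mir-107. A read without base 1 fits both miR-103a-2-5p and miR-103a-1-5p. How such reads, and reads of the mir-107 arm, were assigned is not given in the sources used here.

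Total counts ran from 6631839 to 16207031 per library, and levels are given as counts per 1000000 counts of a library after TMM scaling (CPM). On this scale 3 counts were 0.176 to 0.471 CPM, depending on the library. These floors cover counting error only. Replicate 3 of 0 h and of 12 h were the shallowest libraries. Of the blood lineage miRNAs, miR-181a-5p, miR-142-3p, miR-142-5p and miR-150-5p were all detected in all 9 libraries. Of 8 markers of other cells, miR-1-3p, miR-133a-3p and miR-124-3p (3 markers of muscle and neurons) had 0 counts in all 9 libraries, and miR-144-3p of red cells had 2 in all. The other red cell marker, miR-451a, was detected in all 9 libraries, with 592 counts in all and 1.26 to 9.71 CPM. The summed level of the 8 markers was 197 to 267 CPM (0 h), 229 to 324 CPM (5 h) and 246 to 286 CPM (12 h), most of it miR-223-3p of myeloid cells and miR-200c-3p of epithelial cells. The liver marker miR-122-5p stood at 66.8 CPM in replicate 3 of 5 h and at 0 to 9.03 CPM in the other 8 libraries. Among these it had 0 to 2.13 CPM at 0 h and 5.96 to 9.03 CPM at 12 h. These 2 times did not overlap, as in 12.1% of all tested rows (edgeR adjusted p = 0.691). The part of these 8 markers in the results below was not tested.

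miR-103a-3p had by far the most reads of the 3, with 3319 CPM on average over the 9 libraries and the mean of its rows, rank 27 of 1098 mature miRNAs with counts. miR-107 averaged 286 CPM (rank 80) and miR-103a-2-5p 1.21 CPM (rank 488). These are levels in reads, not scaled by length since all 3 have the same length. Ligation and PCR can favour some sequences, and whether read levels match molecule numbers was not tested. Together they held 0.510% ± 0.0581 (0 h), 0.583% ± 0.0332 (5 h) and 0.608% ± 0.0748 (12 h) of all miRNA counts (SD over 3 libraries), with each mature miRNA counted once. In bulk RNA, fewer cells that hold a miRNA and less of it per cell cannot be told apart. The share was 0.0735 percentage points higher at 5 h than at 0 h (exact two-sided permutation p = 0.2, adjusted over the 3 pairs of times 0.45) and 0.0983 points higher at 12 h than at 0 h (exact permutation p = 0.3, adjusted p = 0.45). Without replicate 3 of 0 h, which had the lowest share (0.443%), these differences were 0.0404 and 0.0652 points. Between 12 h and 5 h the difference was 0.0248 points (exact permutation p = 0.6, adjusted p = 0.6), and -0.00269 points without replicate 1 of 12 h. With 3 against 3 libraries the smallest p an exact test can give is 0.1.

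**Figure D1:**
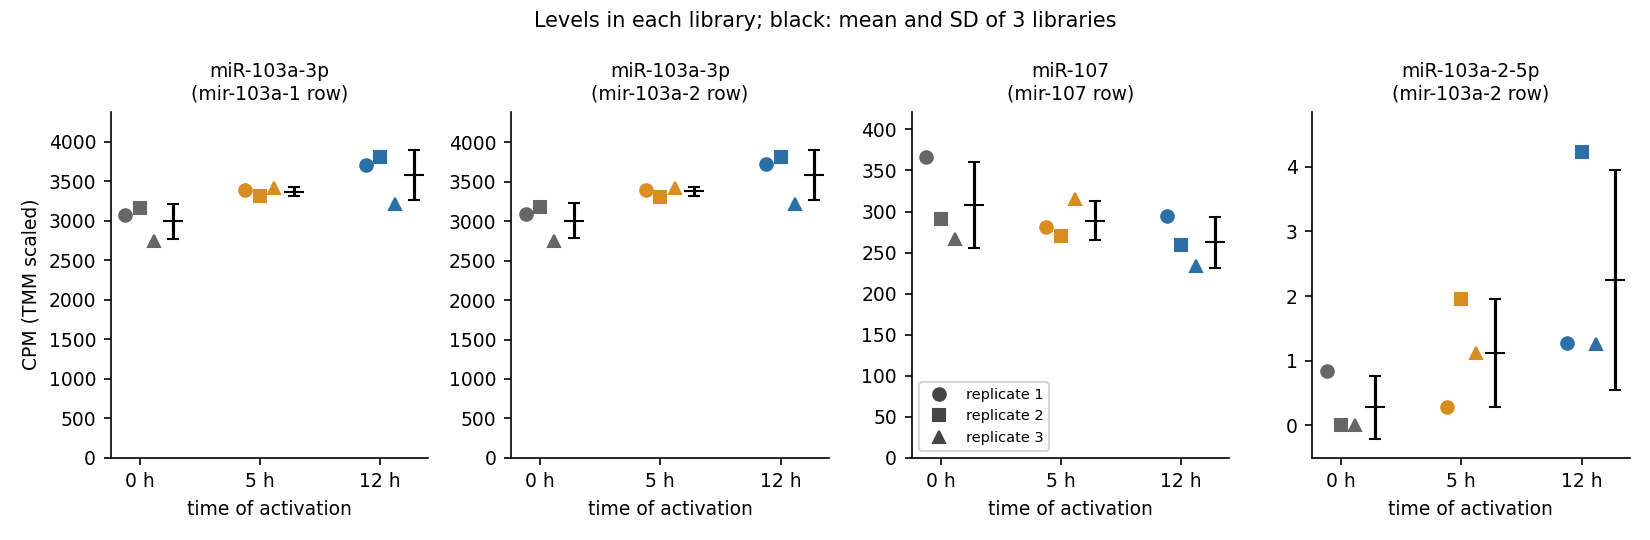
Level of each member row in every library, in CPM after TMM scaling, against the time of activation. Each symbol is a library, shaped by replicate number, and the black marks are the mean and SD of 3 libraries. The 3 libraries at 12 h lie above the 3 at 0 h for miR-103a-3p (3213 to 3809 against 2745 to 3164 CPM on its mir-103a-1 row), whereas the times overlap for miR-107.

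The mir-103a-1 row of miR-103a-3p stood at 3076, 3164 and 2745 CPM in replicates 1, 2 and 3 of 0 h. At 5 h the 3 replicates had 3382, 3306 and 3414 CPM, and at 12 h they had 3709, 3809 and 3213 CPM. All 3 libraries at 5 h and all 3 at 12 h thus lay above all 3 at 0 h, while those at 12 h and 5 h overlapped. Means were 2995 ± 221 (0 h), 3367 ± 55.6 (5 h) and 3577 ± 319 CPM (12 h). No pair of times passed the test below.

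The mir-103a-2 row gave nearly the same numbers, with means of 3005, 3378 and 3589 CPM at 0, 5 and 12 h. In raw counts it was above the mir-103a-1 row in every library, by 55 to 208 counts or 0.186% to 0.419%. The 2 rows nearly repeat each other and were not treated as separate measurements of the PANK3 and PANK2 hairpins.

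At 5 h against 0 h, the log2 fold change of miR-103a-3p was 0.17 (SE 0.11, 95% interval -0.056 to 0.39, n = 3 each, edgeR adjusted p = 0.850), which is 1.12-fold. At 12 h against 0 h it was 0.26 (SE 0.11, 95% interval 0.031 to 0.48, unadjusted p = 0.0277, adjusted p = 0.661), or 1.19-fold. Between 12 h and 5 h it was 0.087 (SE 0.11, 95% interval -0.14 to 0.31, adjusted p = 1). None of these passed the threshold of an adjusted p of 0.05 over all 701 rows. Upper quartile scaling, which raised the typical row as well, gave 0.41 at 12 h against 0 h (adjusted p = 0.0930), and leaving out replicate 3 of 0 h gave 0.11 at 5 h against 0 h. Between 12 h and 5 h, upper quartile scaling gave 0.25, and single libraries left out gave 0.036 (replicate 1 of 12 h) to 0.14 (replicate 3 of 12 h). In the fit with TMM scaling, the upper bounds of the intervals against 0 h correspond to increases of 1.31-fold at 5 h and 1.40-fold at 12 h. A change of the size of miR-132-3p, a CREB-driven miRNA that was 7.22-fold higher at 5 h (3192 ± 295 CPM at 5 h against 442 ± 39.9 CPM at 0 h, edgeR adjusted p = 3.19e-12), lies far outside them.

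miR-107, the miRNA of the PANK1 intron, had 367, 290 and 266 CPM in replicates 1, 2 and 3 of 0 h. It had 281, 270 and 315 CPM at 5 h and 295, 259 and 234 CPM at 12 h. Replicate 1 of 0 h was the highest of the 9 libraries and replicate 3 of 12 h the lowest, and all 3 times overlapped. Means were 308 ± 52.5 (0 h), 289 ± 23.5 (5 h) and 262 ± 30.7 CPM (12 h). The mean at 12 h lay below the lowest library of 5 h (270 CPM), but no pair of times passed the test below.

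The log2 fold change of miR-107 was -0.092 at 5 h against 0 h (SE 0.15, 95% interval -0.41 to 0.23, n = 3 each, edgeR adjusted p = 0.996). At 12 h against 0 h it was -0.23 (SE 0.15, 95% interval -0.55 to 0.088, adjusted p = 0.848). Between 12 h and 5 h it was -0.14 (SE 0.15, 95% interval -0.46 to 0.18, adjusted p = 1). With upper quartile scaling the change was -0.077 at 12 h against 0 h and 0.028 between 12 h and 5 h. The sign at 5 h rests on replicate 1 of 0 h, without which the log2 change was 0.085, and at 12 h against 0 h -0.092. Without replicate 1 of 12 h it was -0.36 at 12 h against 0 h and -0.26 between 12 h and 5 h. Between 12 h and 5 h it was -0.077 without replicate 3 of 12 h and -0.081 without replicate 3 of 5 h.

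In all, 0 of the 4 member rows passed edgeR in each of the 3 comparisons, where 1.57% of all tested rows passed at 5 h against 0 h, 1.43% at 12 h against 0 h and 0.571% at 12 h against 5 h. At an unadjusted p under 0.05 the numbers were 0 of 4 at 5 h against 0 h (5.99% of all rows), 2 of 4 at 12 h against 0 h (both rows of miR-103a-3p; 7.28%) and 0 of 4 at 12 h against 5 h (6.13%). The 2 rows of miR-103a-3p nearly repeat each other, and by mature miRNA the number at 12 h against 0 h was 1 of 3. DESeq2 also called 0 of the 4 rows in each comparison, as did limma-voom, and 0 of the 3 rows in the deposited log2 table passed limma. Groups did not overlap for both rows of miR-103a-3p at 5 h (10.8% of all rows) and for these and miR-103a-2-5p at 12 h against 0 h (12.1%), whereas all 4 rows overlapped between 12 h and 5 h (12.8%). By mature miRNA, groups did not overlap for 1 of 3 at 5 h and 2 of 3 at 12 h against 0 h. The 5 h and 12 h comparisons share the 0 h libraries. An F test over all 3 times, which 1.71% of rows passed, gave an edgeR adjusted p of 0.857 for both rows of miR-103a-3p and of 0.999 for miR-107 and miR-103a-2-5p.

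**Figure D2:**
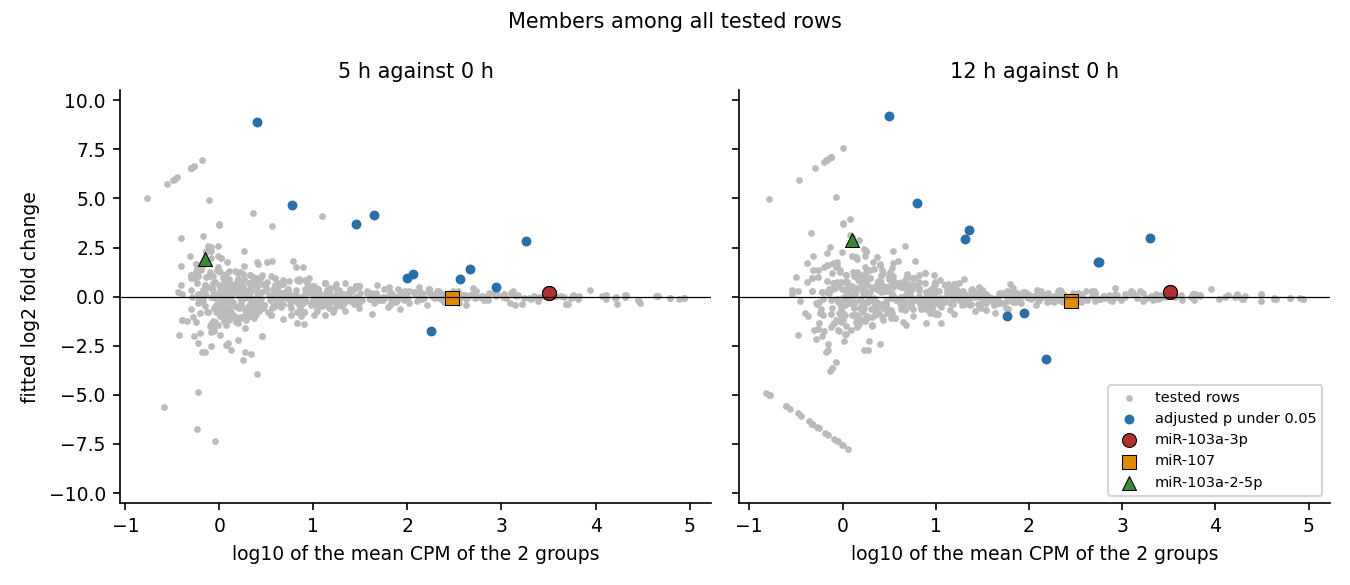
Fitted log2 fold change against 0 h of all 701 tested rows (grey), at 5 h on the left and 12 h on the right, by the log10 of the mean CPM of the groups. Blue points have an edgeR adjusted p under 0.05. miR-103a-3p (0.17 and 0.26) and miR-107 (-0.092 and -0.23) lie in the band of abundant rows close to 0, and miR-103a-2-5p among the scattered rows near 1 CPM.

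The balance between miR-107 and miR-103a-3p was examined next, as the share of miR-107 in the summed counts of the pair. This share is taken within each library and so does not depend on the scaling between libraries. It was 10.6%, 8.39% and 8.83% in replicates 1, 2 and 3 of 0 h, 7.67%, 7.54% and 8.44% at 5 h, and 7.35%, 6.36% and 6.77% at 12 h. All 3 libraries at 12 h lay below all 3 at 5 h and below all 3 at 0 h, while 5 h and 0 h overlapped through replicate 3 of 5 h and replicate 2 of 0 h. The widest 95% Wilson interval of a library was 8.44% to 9.23%, in replicate 3 of 0 h, and it covers counting error only.

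Means of the share were 9.29% ± 1.19 (0 h), 7.88% ± 0.486 (5 h) and 6.82% ± 0.497 (12 h), with SD over 3 libraries. Put as a ratio, miR-103a-3p had 9.88 ± 1.32 (0 h), 11.7 ± 0.759 (5 h) and 13.7 ± 1.06 (12 h) times the counts of miR-107. The difference was -2.46 percentage points for 12 h minus 0 h and -1.06 points for 12 h minus 5 h, each with an exact two-sided permutation p = 0.1, the smallest that 3 against 3 libraries can give, and 0.15 after adjustment over the 3 pairs of times. For 5 h minus 0 h it was -1.40 points (exact permutation p = 0.2, adjusted p = 0.2), and -0.727 points without replicate 1 of 0 h. None of these could reach 0.05 in this design. With the 2 rows of miR-103a-3p summed in place of averaged, which counts repeated reads again, the differences were -1.34 (12 h minus 0 h), -0.570 (12 h minus 5 h) and -0.768 points (5 h minus 0 h). Reads too short to reach base 22 enter one or the other entry by a rule that is not known here, and the part of read length in the share was not tested.

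**Figure D3:**
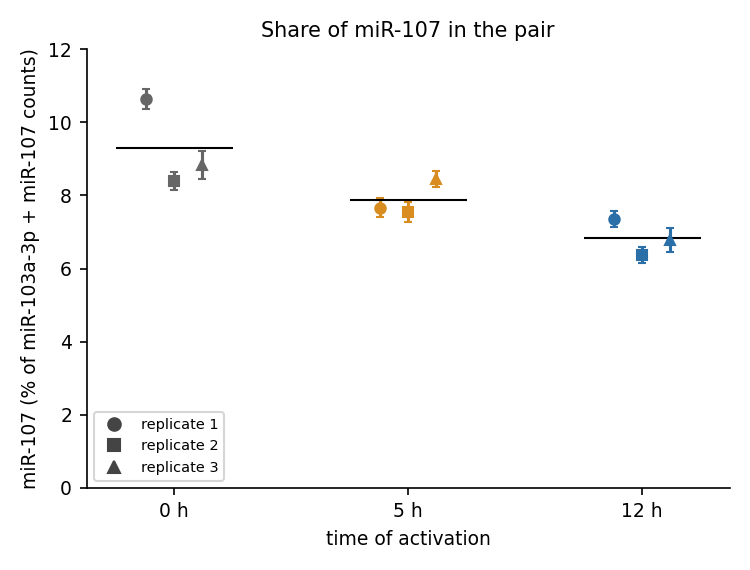
Share of miR-107 in the summed counts of miR-103a-3p and miR-107, in percent, for each library by time of activation. Error bars are 95% Wilson intervals of the counts in 1 library, and lines are means of 3 libraries. The 3 libraries at 12 h (6.36% to 7.35%) lie below the 3 at 5 h (7.54% to 8.44%) and the 3 at 0 h (8.39% to 10.6%).

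miR-103a-2-5p, the entry for the arm of the PANK2 hairpin that is seldom kept, was near the detection limit. Its raw counts in replicates 1, 2 and 3 were 13, 0 and 0 at 0 h, 3, 19 and 19 at 5 h, and 17, 50 and 8 at 12 h, which gave means of 0.279 ± 0.483 (0 h), 1.11 ± 0.835 (5 h) and 2.25 ± 1.71 CPM (12 h). All 13 counts at 0 h came from replicate 1. The 3 libraries at 12 h (1.26 to 4.22 CPM) lay above the 3 at 0 h (0 to 0.836 CPM), and the other pairs of times overlapped. The fitted log2 change was 1.90 at 5 h against 0 h (SE 1.86, 95% interval -2.01 to 5.80, n = 3 each, edgeR adjusted p = 0.996). At 12 h against 0 h it was 2.90 (SE 1.92, 95% interval -1.14 to 6.95, adjusted p = 0.848), and between 12 h and 5 h 1.01 (SE 1.80, adjusted p = 1). As folds the intervals ran from 0.248 to 55.7 at 5 h and from 0.454 to 123 at 12 h against 0 h, so differences of several-fold in either direction lie within them. Without replicate 2 of 12 h the log2 change was 2.08 at 12 h against 0 h and 0.17 between 12 h and 5 h.

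Set against miR-103a-3p, miR-103a-2-5p had 0.904 ± 1.57 (0 h), 3.33 ± 2.53 (5 h) and 6.13 ± 4.28 (12 h) counts per 10000 counts of miR-103a-3p (SD over 3 libraries). Counts of miR-103a-3p can come from mir-103a-1 and mir-103a-2, so this ratio is not the arm balance of the PANK2 hairpin alone. Whether counts of miR-103a-2-5p hold reads of the other hairpins, whose 5p arms are 1 base apart from it, was not tested. The difference was 5.22 at 12 h against 0 h (exact permutation p = 0.1, adjusted p = 0.3), 2.42 at 5 h against 0 h (exact permutation p = 0.2, adjusted p = 0.3) and 2.80 at 12 h against 5 h (exact permutation p = 0.4, adjusted p = 0.4). With the rows of miR-103a-3p summed, the differences were 2.61, 1.21 and 1.40. Single libraries decided the values: without replicate 2 of 12 h the difference from 0 h was 2.75 and that from 5 h 0.332. Without replicate 2 of 5 h the difference at 5 h was 1.14, and without replicate 1 of 5 h it was 3.67, with 1.55 between 12 h and 5 h.

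The entry for the arm of the PANK3 hairpin, miR-103a-1-5p, had more reads, 555 in all against 129 of miR-103a-2-5p. Per 10000 counts of miR-103a-3p it had 16.5, 24.9 and 5.54 in replicates 1, 2 and 3 of 0 h, 20.4, 8.996 and 13.9 in those of 5 h, and 19.1, 10.2 and 18.5 in those of 12 h. The means were 15.6 ± 9.68 (0 h), 14.4 ± 5.71 (5 h) and 15.9 ± 4.99 (12 h). All times overlapped, and the log2 change was 0.0047 at 5 h (edgeR adjusted p = 0.996) and 0.21 at 12 h against 0 h (adjusted p = 0.991). In replicate 2 of 12 h miR-103a-2-5p had 50 counts beside 46 of miR-103a-1-5p, and in the other 8 libraries it had fewer than miR-103a-1-5p. miR-103b, an entry for the opposite strand of mir-103a-1 and mir-103a-2 whose sequence is the reverse complement of miR-103a-3p, had 0 counts on both of its rows in all 9 libraries, which allows up to 0.176 to 0.471 CPM in a library.

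**Figure D4:**
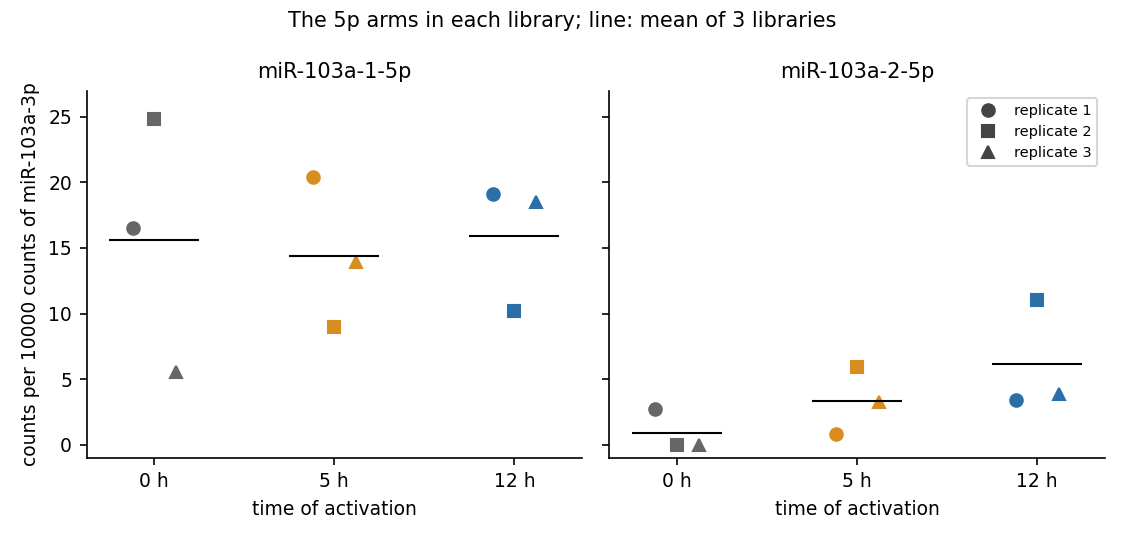
Counts of miR-103a-1-5p (left, entry for the PANK3 hairpin) and miR-103a-2-5p (right, entry for the PANK2 hairpin) per 10000 counts of miR-103a-3p. Each library is shown by time of activation, with lines at the mean of 3 libraries. The means of miR-103a-1-5p are 15.6, 14.4 and 15.9 at 0, 5 and 12 h and those of miR-103a-2-5p are 0.904, 3.33 and 6.13, with wide scatter in both.

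Within the miR-15 and miR-107 group, the list of 11 mature miRNAs had 10 with counts and 9 tested, miR-103a-3p and miR-107 included. Of these 9, 0 passed edgeR in each comparison in either direction, beside the 1.57%, 1.43% and 0.571% of all rows that passed, and 0, 1 and 0 had an unadjusted p under 0.05, the 1 being miR-103a-3p at 12 h against 0 h. The median log2 change of the group was -0.068 at 5 h and -0.049 at 12 h against 0 h, and -0.12 at 12 h against 5 h, beside 0.029, 0.011 and -0.032 for all tested rows. miR-16-5p, a repressor of BCL2 encoded with miR-15a and miR-15b, held 92.7% ± 0.845 of the group's counts over the 9 libraries (SD), against 5.41% ± 0.673 for the pair of miR-103a-3p and miR-107. By time, the pair held 4.82% ± 0.349 (0 h), 5.66% ± 0.701 (5 h) and 5.75% ± 0.634 (12 h) of the group (SD over 3 libraries), and the libraries of the 3 times overlapped.

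After miR-16-5p, miR-103a-3p was the second most abundant of the group. miR-15b-5p followed with 844 ± 187 (0 h), 913 ± 46.3 (5 h) and 729 ± 145 CPM (12 h) (edgeR adjusted p = 0.720 for 12 h against 5 h). miR-15a-5p had 224 ± 63.4 (0 h), 214 ± 23.5 (5 h) and 197 ± 23.3 CPM (12 h), with a mean below miR-107 at each. miR-424-5p, encoded beside miR-503 on the X chromosome, had 108 ± 26.7 (0 h), 129 ± 11.6 (5 h) and 136 ± 3.88 CPM (12 h). miR-503-5p averaged 48.9 CPM over the 9 libraries and miR-195-5p 20.4 CPM. miR-6838-5p averaged 1.38 CPM, miR-497-5p had 60 counts in all and was not tested, and miR-646 had 0 counts. miR-195-5p had log2 changes of 0.70 at 5 h and 0.15 at 12 h against 0 h, and -0.55 at 12 h against 5 h (edgeR adjusted p of 0.736 or more). Those of miR-6838-5p, near the floor, were -0.74, 0.68 and 1.41 in these comparisons. The changes of the 5 more abundant relatives miR-16-5p, miR-15b-5p, miR-15a-5p, miR-424-5p and miR-503-5p ran from -0.34 (miR-503-5p at 12 h against 0 h) to 0.33 (miR-424-5p at 12 h against 0 h).

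**Figure D5:**
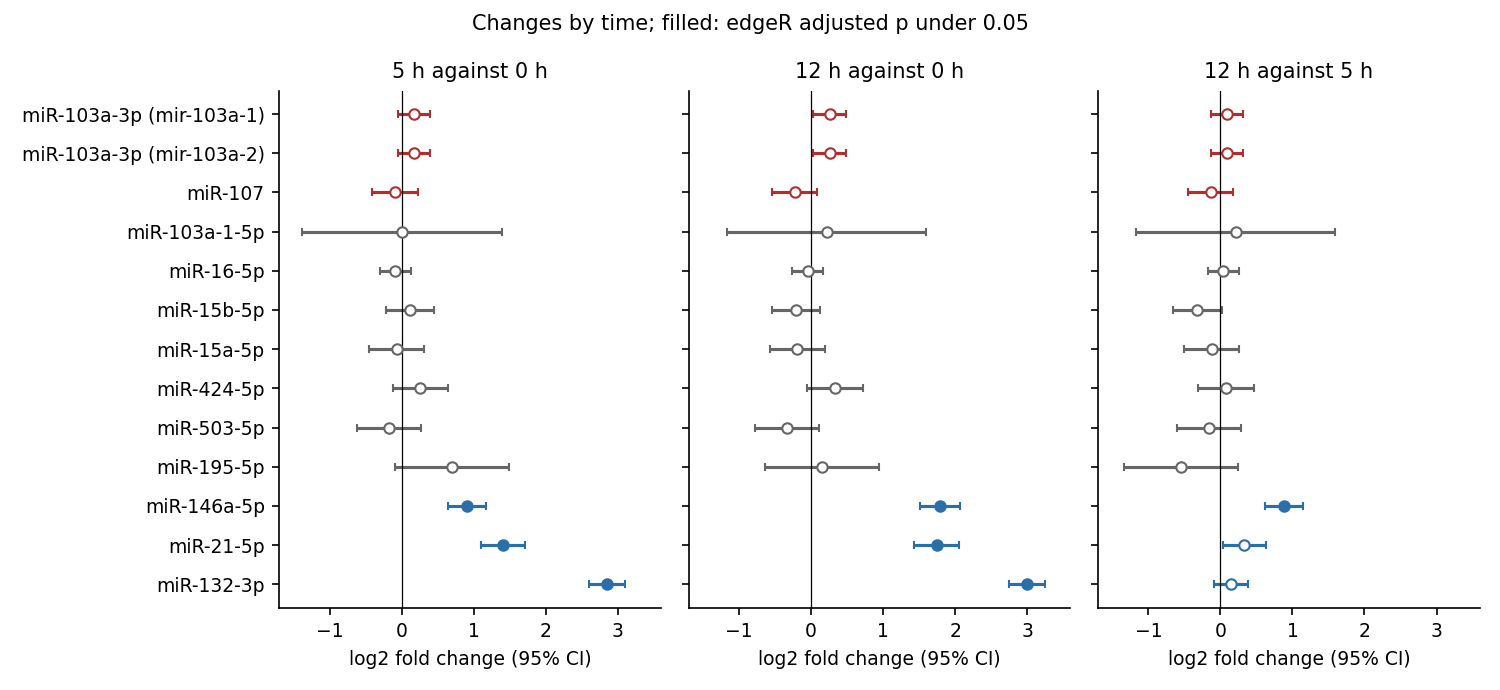
Log2 fold change with 95% interval in edgeR for miR-103a-3p and miR-107 (red), miR-103a-1-5p and relatives of the miR-15 and miR-107 group (grey), and 3 miRNAs that passed in the same fit (blue), by comparison. Filled points have an adjusted p under 0.05. Those of miR-103a-3p and miR-107 are open in all 3 comparisons, within -0.23 to 0.26, whereas miR-132-3p, miR-21-5p and miR-146a-5p are filled at 5 h and 12 h against 0 h.

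To see which miRNAs had the most similar course, each mature miRNA with a mean of at least 100 CPM was centred on the log2 scale and compared over the 9 libraries by the root mean square of the differences. This is a description, and all of these levels share the same libraries and scaling. The closest to miR-103a-3p were miR-425-5p (0.083 log2 units), miR-423-3p (0.090), miR-363-3p (0.11), miR-182-5p (0.11) and miR-23a-3p (0.12), beside a median of 0.21 over all 118. The closest to miR-107 were miR-484 (0.060), miR-652-3p (0.076), miR-345-5p (0.11), miR-92b-3p (0.12) and miR-18a-5p (0.12), beside a median of 0.24. Between miR-103a-3p and miR-107 the difference was 0.23, which placed miR-107 at rank 68 of 118 for miR-103a-3p and miR-103a-3p at rank 52 for miR-107.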

How the data were processed

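The submitters' processing notes name GRCh38.p13 and DESeq2. The aligner and the counting tool were not given in the sources used here. The authors deposited raw counts per pair of precursor and mature miRNA, so a mature miRNA with several precursors has several rows. They also deposited log2 normalised values for the 430 rows above 0 in all 9 libraries, which lack miR-103a-2-5p and served in an alternative only. Groups and replicate numbers came from the labels, which name no batch or pairing.

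Rows that passed filterByExpr (minimum count 10, minimum total 15; 701 of 1214 rows above 0) were scaled by TMM and fitted with edgeR 4.0.16 (R 4.3.3, quasi-likelihood, 1 mean per time, all 9 libraries), with Benjamini-Hochberg adjustment over all rows and a threshold of 0.05. The common biological coefficient of variation was 77%. Library totals behind the CPM include the repeated precursor rows. For shares, each mature miRNA was counted once as the mean of its rows, and times were compared by exact two-sided permutation tests (scipy 1.17.1). Likeness used log2 of CPM plus 1. No replicate pair was a duplicate (chi-square per degree of freedom 70.4 or more). The fit was tested on simulated counts whose changes were much larger than those fitted for miR-103a-3p and miR-107. That test does not show whether changes of their size would be called.

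Alternatives were other scalings and filters, DESeq2 1.42.0, limma-voom and limma 3.58.1 on the log2 values, only the times compared, the replicate block, 1 row per mature miRNA, the sum or the highest of the precursor rows for shares, the pair added into 1 feature, and libraries left out. The members and lists were chosen with earlier results of these data known. The text names the members, the listed miRNAs with counts, the 5 nearest miRNAs to miR-103a-3p and miR-107, and 3 miRNAs that passed. Sequences are from RefSeq (GRCh38.p14) and introns from GENCODE 29, whose hairpin positions are identical. Of the 2654 mature names, 2365 matched the RefSeq table.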

Additional observations from a re-analysis of the deposited data

How the results depend on the processing

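The log2 changes of miR-103a-3p kept their sign in all 3 comparisons and all 22 alternatives, 1 of which added the counts of miR-107. These changes stayed above an adjusted p of 0.05 in each. On the mir-103a-1 row they ran from 0.10 to 0.23 at 5 h against 0 h, 0.19 to 0.41 at 12 h against 0 h and 0.036 to 0.25 at 12 h against 5 h. The lowest adjusted p was 0.0930, at 12 h with upper quartile factors, where the median over all rows was 0.17, and 0.13 between 12 h and 5 h. miR-107 also passed in none of its 22 alternatives, 1 of which measured it only as part of the pair. Its change between 12 h and 5 h turned to 0.028 with upper quartile factors; added to miR-103a-3p as 1 feature the pair had 0.14 at 5 h, 0.21 at 12 h and 0.073 between them, as most of its counts are miR-103a-3p. With each library left out in turn miR-107 ran from -0.20 to 0.085 at 5 h against 0 h. miR-103a-2-5p kept its sign and did not pass in its 19 alternatives; it is not in the deposited log2 table and not past the stricter filter. Its fitted change depends on replicate 1 of 0 h, which holds all control counts: without it the values were 6.66 at 5 h and 7.62 at 12 h. These were fitted against 0 counts at 0 h, so their size rests on the prior count of the fit, which was not varied. The share of the members at 12 h against 5 h ran from -0.00269 to 0.0674 points over the libraries left out. The numbers of rows that passed among all rows were 11, 10 and 4 at 5 h against 0 h, 12 h against 0 h and 12 h against 5 h. With no filter 17 passed at 5 h and 12 between 12 h and 5 h, with only the 2 times compared 6 at 12 h against 0 h, and on the deposited log2 values 5 at 5 h and 6 at 12 h against 0 h. With the replicate block, 11 passed between 12 h and 5 h, and the block changed no call of a member. The labels name no pairing. Correlations of deviations were -0.030 to 0.060 for equal replicate numbers and -0.11 to 0.086 for unequal ones, which cannot settle whether samples were paired. Leaving out libraries gave 3 to 10 rows between 12 h and 5 h, the 10 without replicate 1 of 12 h. In the shares, summing the precursor rows gave smaller differences of the same sign for miR-107 and the 5p arm, since miR-103a-3p then enters with both rows; the highest row in place of the mean gave nearly the main values.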

Other observations

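miR-33a and miR-33b lie in introns of SREBF2 and SREBF1, which encode regulators of sterol and fatty acid synthesis, and were listed as another pair of intronic miRNAs of lipid metabolism. All 4 arms were tested and 0 passed edgeR at 5 h against 0 h (1.57% of all rows), 12 h against 0 h (1.43%) and 12 h against 5 h (0.571%). At an unadjusted p under 0.05 there were 1, 1 and 0, beside 5.99%, 7.28% and 6.13% of all rows. miR-33a-5p had 13.7 ± 1.30 (0 h), 12.4 ± 2.97 (5 h) and 14.7 ± 7.27 CPM (12 h), and miR-33b-5p 15.2 ± 7.34 (0 h), 12.5 ± 2.63 (5 h) and 17.4 ± 6.24 CPM (12 h), with SD over 3 libraries. The arm with the unadjusted p under 0.05 was miR-33b-3p, with 4.36 ± 3.65 CPM at 5 h and 4.40 ± 0.749 at 12 h, against 11.3 ± 3.10 at 0 h. Its libraries at 5 h and at 12 h lay below those at 0 h. Groups did not overlap in 10.8% of all rows at 5 h and 12.1% at 12 h. At 5 h replicate 3 had 8.57 CPM, close to the 8.99 CPM of replicate 3 of 0 h, and replicates 1 and 2 had 2.15 and 2.36 CPM. The log2 change of miR-33b-3p was -1.37 at 5 h (edgeR adjusted p = 0.695) and -1.36 at 12 h (adjusted p = 0.661).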
